A study of Mus musculus with 38 samples.

Results

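The 10 genes described here belong to the integrated stress response, the program that a cell turns on when translation initiation is slowed by amino acid shortage, misfolded protein, heme loss or mitochondrial damage. They are Atf4, Atf5, Ddit3, Trib3, Asns, Chac1, Gdf15, Fgf21, Sesn2 and Ddit4, chosen by name from the 29564 genes listed in the deposited tables. All 10 were listed, and 9 had enough reads to enter the test across genes, with Fgf21 the exception. RNA was measured by bulk RNA sequencing of left ventricle in 38 wild-type C57BL6 mice, 1 library per mouse. The non_failing group (n = 8) received vehicle and served as healthy control. The other groups all carried heart failure with preserved ejection fraction (HFpEF), induced by a high-fat diet together with L-NAME, an inhibitor of nitric oxide synthesis. They received vehicle (HFpEF+Veh, n = 8), TYA-018, which inhibits the deacetylase HDAC6 (n = 11, HFpEF+TYA-018), or empagliflozin, an SGLT2 inhibitor (n = 11, HFpEF+SGLT2i). Neither the age of the mice nor the doses are in the labels, and their sex is given differently in the labels and in the study. In this model the diet and the L-NAME were given together, so their parts in any difference from non_failing cannot be told apart.

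In the integrated stress response, 4 kinases phosphorylate the initiation factor eIF2, general protein synthesis falls, and a few messages with upstream open reading frames, ATF4 and ATF5 among them, are translated better. ATF4 is a transcription factor that binds C/EBP-ATF response elements in genes of amino acid uptake and synthesis, redox balance and cell death. GDF15 and FGF21, which cells release when mitochondria are stressed, carry the signal to other organs. Since ATF4 and ATF5 are regulated mainly through translation, their messenger levels are only part of their activity.

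The sequences that ATF4 can bind are shown for the members that hold them near their start site. All 10 genes matched a promoter in RefSeq (assembly GRCm38.p6), 250 bases before to 50 after the start, with 12 entries in all since Atf5 and Gdf15 have 2 starts each. The motif searched was TGATGNAA, the core of the C/EBP-ATF response element, on both strands, and its best known form TGATGCAA, which is contained in the former. Of 32851 promoters in the table, 3.97% held TGATGNAA and 0.895% held TGATGCAA, and counted per gene 4.51% and 1.03% of 27025 genes did. Among the 10 genes, 4 held the former and 2 of them (Chac1 and Fgf21) the latter. The 30 bases around each match are given on the gene's own strand, with the match in capitals. The match began at base +15 from the start of Trib3 (chr2:152344028-152344057, minus strand), at -23 in Asns (chr6:7693214-7693243, minus), at -193 in Chac1 (chr2:119351038-119351067, plus) and at -139 in Fgf21 (chr7:45615611-45615640, minus). In Asns it read along the gene, and in the other 3 on the opposite strand.
Trib3: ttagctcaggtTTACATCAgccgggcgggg
Asns: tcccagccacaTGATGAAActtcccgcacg
Chac1: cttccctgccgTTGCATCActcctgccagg
Fgf21: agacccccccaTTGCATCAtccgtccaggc

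Gdf15 and Atf5, the pair of genes that the results below turn on, held neither form in these windows, which says only that these letters were not there. The 120 bases before the upstream start of each are printed for comparison, both from the minus strand (Gdf15, chr8:70632457-70632576, and Atf5, chr7:44816659-44816778). G and C made up 55.8% of this stretch in Gdf15 and 79.2% in Atf5.
Gdf15: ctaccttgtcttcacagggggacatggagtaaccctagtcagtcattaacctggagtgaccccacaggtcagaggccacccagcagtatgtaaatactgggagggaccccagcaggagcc
Atf5: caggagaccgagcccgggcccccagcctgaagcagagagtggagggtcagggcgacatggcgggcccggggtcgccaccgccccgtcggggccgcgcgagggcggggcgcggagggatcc

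Libraries held 21.5 M to 59.3 M counts (M stands for 1000000), with group medians between 28.8 M and 29.8 M. Summed over 8 cardiomyocyte markers, levels were 21524 to 42897 counts per M counts (CPM) over the libraries, so the defining genes of the labelled tissue were present in each. Group medians of this sum were 35806 CPM in non_failing, 30440 in HFpEF+Veh, 36138 in HFpEF+TYA-018 and 32613 in HFpEF+SGLT2i, and those of 6 fibroblast markers were 490, 567, 512 and 530 CPM in the same sequence. The sum of 5 brown adipocyte markers, of which 1 to 4 were at 0 in each library, had medians of 18.4, 30.8, 37.2 and 33.3 CPM. The part of these shifts in the differences below was not tested. V2571 of HFpEF+SGLT2i had the lowest cardiomyocyte sum (21524 CPM) and the highest sum of 5 endothelial markers (1324 CPM). Library V2523 of HFpEF+Veh stood apart, since all 14 hepatocyte markers were higher in it than in any other vehicle library. Their summed level was 2301 CPM in V2523 and 3.38 to 48.0 in the other 7 vehicle libraries. It was 32.9 to 466 CPM (median 79.0) in non_failing, above the medians of 2.98 in HFpEF+TYA-018 and 4.81 in HFpEF+SGLT2i. Several vehicle values below are therefore given without V2523 as well.

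Levels of the 10 genes are compared in transcripts per M transcripts (TPM), which accounts for gene length. In mean TPM over the 38 libraries the order was Atf4 (49.3), Atf5 (36.3), Ddit3 (28.1), Ddit4 (16.8), Gdf15 (3.61), Trib3 (1.96), Chac1 (1.68), Asns (1.39), Sesn2 (0.848) and Fgf21 (0.139). The transcription factors were thus the abundant members, and the secreted factor Fgf21 was barely detected. Each gene exceeded the next in at least 31 libraries of 38, apart from Trib3 against Chac1 (25 of 38) and Chac1 against Asns (24 of 38). Neighbouring means among these 3 genes lay closer together than their SDs (0.626, 0.617 and 0.425 TPM). Ddit4 varied most among the 9 tested genes in non_failing, HFpEF+Veh and HFpEF+SGLT2i, with a coefficient of variation of 59.4%, 48.0% and 51.0%.

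**Figure D1:**
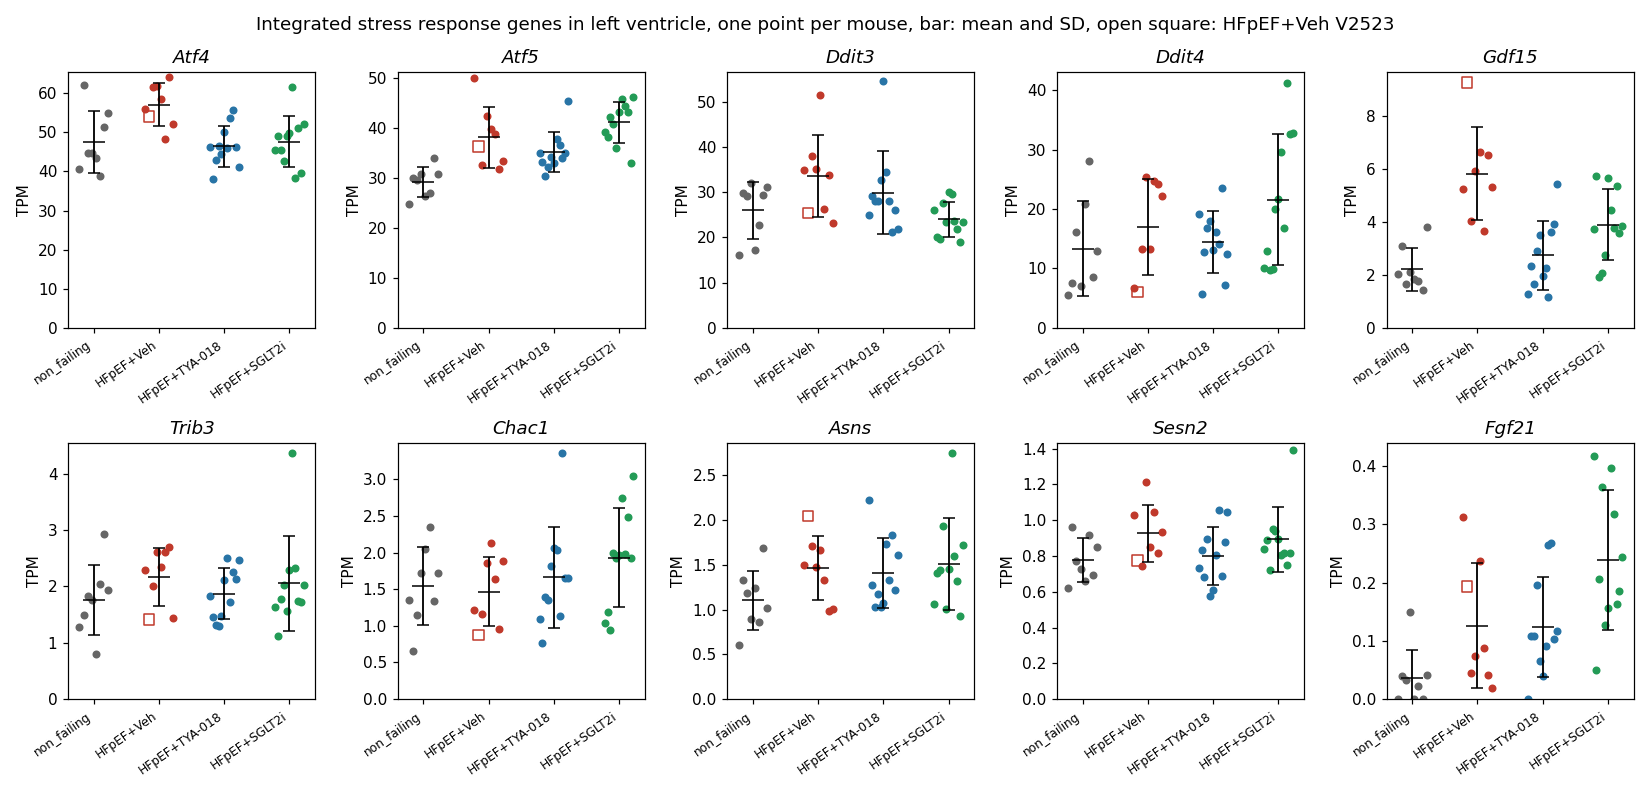
TPM of the 10 genes (vertical axis, each panel with its own scale from 0) in the 4 groups, 1 point per mouse, with bars at the mean and SD; the open square is HFpEF+Veh V2523. Gdf15 sits at 3.65 to 9.26 TPM in HFpEF+Veh against 1.43 to 3.80 in non_failing, while the spreads of Ddit4, Chac1 and Trib3 overlap widely in all groups.

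The first comparison asked which of these genes differ between vehicle-treated HFpEF hearts and healthy hearts. Gdf15 and Atf5 were higher in HFpEF+Veh and the other 7 tested genes did not pass the test. With 2 of 9 genes called at an adjusted p under 0.05 (Benjamini-Hochberg over 13765 genes), the background is that 3.15% of all genes tested were called in this comparison. The median log2 fold change of the 9 was 0.19, against 0.01 for all genes, and 8 of the 9 had a positive sign.

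Gdf15 encodes growth differentiation factor 15, a hormone that reduces appetite through a receptor in the hindbrain. In non_failing its level was lowest at 1.43, median 1.94 and highest at 3.80 TPM. In HFpEF+Veh the lowest was 3.65, the median 5.63 and the highest 9.26 TPM, so 1 non_failing mouse (V2510) reached into the vehicle range. The mean was 2.22 ± 0.812 TPM (SD, n = 8) in non_failing and 5.83 ± 1.76 (SD, n = 8) in HFpEF+Veh. In the quasi-likelihood test of edgeR the log2 fold change was 1.28 (SE 0.27, 95% interval 0.74 to 1.82, adjusted p = 0.00383), a 2.42-fold higher level, and all 8 vehicle mice lay above the non_failing mean. Counts of mice beyond a group's mean are on log2 CPM, the scale of the fit, unless TPM is named, and on CPM for Fgf21. In bulk tissue, a change in the number of cells of a type and a change in RNA per cell cannot be told apart.

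The highest Gdf15 level of all 38 mice was that of V2523, the library with the hepatocyte markers. Without V2523 the vehicle mean was 5.34 ± 1.16 TPM (SD, n = 7) and the log2 fold change against non_failing was 1.14, with adjusted p = 0.00761 in edgeR. Gdf15 was called against non_failing in each of the 38 fits that left out 1 library. Non_failing hearts, which had the lowest mean Gdf15, also had the highest median of hepatocyte markers. The part of hepatocyte RNA in the single value of V2523, and in the Gdf15 differences between groups, was not tested.

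Under TYA-018, Gdf15 was lower than in HFpEF+Veh and was the 1 of 9 genes called, beside 1.93% of all genes. Its levels in HFpEF+TYA-018 were lowest at 1.17, median 2.35 and highest at 5.43 TPM, with a mean of 2.73 ± 1.30 (SD, n = 11). On log2 CPM 10 of these 11 mice lay below the vehicle mean, and in TPM all 11, but the groups overlapped. The log2 fold change was -0.92 (SE 0.24, 95% interval -1.40 to -0.43, adjusted p = 0.0355 in edgeR), or 1.89-fold lower. The call was made in 29 of the 38 fits without 1 library. Without V2523 the log2 fold change was -0.78 with adjusted p = 0.0757, and no gene of the 9 was called. Fitting only these 2 groups also ended the call at the same size (-0.92, adjusted p = 0.0899). It was also lost, with log2 fold changes of -0.84 to -0.91, without V2528 (adjusted p = 0.0622) or V2530 (0.0661) of HFpEF+Veh, and without V2543 (0.0550), V2546 (0.0531), V2547 (0.0654), V2550 (0.0506), V2551 (0.0547) or V2552 (0.0578) of HFpEF+TYA-018, by edgeR.

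With empagliflozin, Gdf15 lay between these groups. The levels were lowest at 1.94, median 3.75 and highest at 5.74 TPM, with a mean of 3.90 ± 1.33 (SD, n = 11). Against HFpEF+Veh the log2 fold change was -0.50 (95% interval -0.99 to -0.02, adjusted p = 0.473 in edgeR), and without V2523 it was -0.37 (adjusted p = 0.587). Against non_failing it was 0.78 (SE 0.25, adjusted p = 0.0537), with 9 of 11 mice above the non_failing mean. This value moved past the threshold in 7 of the 38 fits without 1 library, V2523 among them (adjusted p = 0.0437). It did so too in 3 of 8 other settings, namely DESeq2 (adjusted p = 0.0278), edgeR with the length offset (0.0453) and edgeR on only these 2 groups (0.0342). HFpEF+TYA-018 did not pass the test against non_failing (log2 fold change 0.36, 95% interval -0.14 to 0.86, adjusted p = 0.424). The direct comparison of the drugs gave -0.42 for TYA-018 minus empagliflozin (95% interval -0.87 to 0.04, adjusted p = 0.428), so a difference between them was not shown.

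Fgf21, the other secreted factor, encodes a fasting hormone made mostly by liver and induced by PPARA as well as ATF4. It was near the limit of detection in heart, with 154 counts in all 38 libraries, 4 libraries at 0, and only 19 libraries over 3 counts. A count of 0 allows up to 3 counts, which is 0.0498 to 0.143 CPM depending on the depth of the library. The totals were 8 counts in non_failing, 27 in HFpEF+Veh, 39 in HFpEF+TYA-018 and 80 in HFpEF+SGLT2i. Pooled over a group this was 0.0308 CPM in non_failing (exact Poisson 95% interval 0.0133 to 0.0606), 0.0981 with vehicle (0.0647 to 0.143), 0.116 with TYA-018 (0.0826 to 0.159) and 0.208 with empagliflozin (0.165 to 0.259). These intervals cover counting error only.

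Counts of Fgf21 in single mice ran from 0 to 4 in non_failing (median 1), 1 to 8 with vehicle (median 2), 0 to 9 with TYA-018 (median 3) and 2 to 20 with empagliflozin (median 6). More than 3 counts were found in 1 of 8, 3 of 8, 5 of 11 and 10 of 11 libraries in that order. Mean CPM was 0.221 ± 0.121 (SD, n = 11) in HFpEF+SGLT2i and 0.0314 ± 0.0447 (SD, n = 8) in non_failing, and all 11 empagliflozin mice lay above the non_failing mean. The difference of 0.190 CPM had adjusted p = 0.000953 in a two-sided exact permutation test, adjusted over 6 comparisons. The difference of HFpEF+TYA-018 from non_failing was 0.0850 CPM (10 of 11 mice, exact permutation test, adjusted p = 0.0281). HFpEF+Veh differed from non_failing by 0.0738 CPM (7 of 8 mice), which did not pass the exact permutation test (adjusted p = 0.0744, and 0.149 without V2523).

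Between the HFpEF groups, Fgf21 was at the threshold. HFpEF+SGLT2i exceeded HFpEF+Veh by 0.116 CPM in 10 of 11 mice, with adjusted p = 0.0503 in the exact permutation test, 0.0490 without V2523, and 0.0598 in TPM. HFpEF+TYA-018 lay 0.105 CPM below HFpEF+SGLT2i, where 9 of 11 mice were below the mean of the latter (permutation test with 100000 resamples, adjusted p = 0.0503). In TPM the adjusted p of that difference was 0.0365 by the same permutation test. HFpEF+TYA-018 and HFpEF+Veh differed by 0.0112 CPM (exact permutation test, adjusted p = 0.780), and this difference had the opposite sign in TPM. The summed hepatocyte markers had medians of 79.0 CPM in non_failing, 7.77 in HFpEF+Veh, 2.98 in HFpEF+TYA-018 and 4.81 in HFpEF+SGLT2i, and the part of hepatocyte RNA in Fgf21 was not tested.

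Listed targets of PPARA were more abundant than Fgf21 and several were called, while no receptor gene of the list was. Of 10 listed PPARA targets and receptors, 9 were tested, since the coreceptor gene Klb had too few reads. In HFpEF+Veh 5 were called higher than in non_failing and none lower, with a list median log2 fold change of 0.40 against 0.01 for all genes. Among them were Angptl4, an inhibitor of lipoprotein lipase (log2 fold change 1.70, adjusted p = 0.00190), and the acyl-CoA thioesterase gene Acot1 (1.44, adjusted p = 0.00620), both by edgeR. Without V2523 this pair was still called while Pdk4 and Cpt1a were not (adjusted p = 0.102 and 0.0602), and of the 38 fits without 1 library Pdk4 was called in 17 and Cpt1a in 32. Against non_failing, 7 of 9 were called higher in HFpEF+TYA-018 and 7 of 9 in HFpEF+SGLT2i. The shares of all genes called in these 3 comparisons were 3.15%, 7.39% and 6.45%. Against HFpEF+Veh, the uncoupling protein gene Ucp3 was higher under TYA-018 (0.79, adjusted p = 0.0370), and Ucp3 (1.17, adjusted p = 0.00129) and Pdk4, a kinase that restrains glucose oxidation (0.86, adjusted p = 0.00865), were higher under empagliflozin. None of these calls between HFpEF groups was made by limma on log2(TPM + 1), and that of Ucp3 under TYA-018 was made in 28 of the 38 fits without 1 library. The latter was also lost with the length offset (0.77, adjusted p = 0.0529 in edgeR). Fitting only the 2 groups ended the Pdk4 call under empagliflozin (0.85, adjusted p = 0.167 in edgeR).

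Of the transcription factors, Atf5 was higher in all 3 HFpEF groups than in healthy hearts. ATF5 drives chaperone and protease genes when mitochondrial protein import is disturbed. In non_failing its level was lowest at 24.9, median 29.9 and highest at 33.9 TPM. In HFpEF+Veh it was 31.9, 37.5 and 50.01, in HFpEF+TYA-018 30.5, 34.2 and 45.5, and in HFpEF+SGLT2i 33.1, 42.3 and 46.3 TPM in the same sequence. The TPM ranges of non_failing and of every HFpEF group thus overlapped, with 3 of 8 vehicle mice, 4 of 11 TYA-018 mice and 1 of 11 empagliflozin mice below the highest non_failing value. The largest of the 3 differences was in HFpEF+SGLT2i, where the log2 fold change was 0.50 (SE 0.07, 95% interval 0.36 to 0.64, adjusted p = 6.63e-06 in edgeR) and 11 of 11 mice lay above the non_failing mean. On the CPM scale these groups did not overlap, which held for 0.872% of all genes in this comparison.

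The Atf5 difference of HFpEF+TYA-018 from non_failing was 0.31 in log2 units (SE 0.07, 11 of 11 mice, edgeR adjusted p = 0.00411). Limma on log2(TPM + 1) gave 0.27 with adjusted p = 0.0680, a setting that differs in test, unit, scaling and filter together. HFpEF+Veh exceeded non_failing by 0.28 (SE 0.07, adjusted p = 0.0299, 7 of 8 mice on log2 CPM and 8 of 8 in TPM), and by 0.29 without V2523 (adjusted p = 0.0226 in edgeR). That call was lost without V2521, the vehicle mouse with the highest Atf5 (0.22, adjusted p = 0.0876), and without V2501 (0.0692), V2503 (0.0636), V2508 (0.0631), V2527 (0.0611) or V2528 (0.0698), where the difference was 0.25 to 0.27. Fitting only the 2 groups ended it too (0.27, adjusted p = 0.0953 in edgeR). In HFpEF+TYA-018 against non_failing 1 of 9 genes was called beside 7.39% of all genes, and in HFpEF+SGLT2i against non_failing 1 of 9 beside 6.45%. In both comparisons that gene was Atf5.

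Whether either drug changed Atf5 was less clear. HFpEF+SGLT2i was higher than HFpEF+Veh by 0.22 (95% interval 0.08 to 0.36) in 10 of 11 mice on log2 CPM and 8 of 11 in TPM, with p = 0.00262 before and 0.144 after adjustment in edgeR. Without V2521 the difference was 0.28 and was called (adjusted p = 0.0249). HFpEF+TYA-018 lay 0.03 above HFpEF+Veh (95% interval -0.11 to 0.17, adjusted p = 0.851), a sign that reversed with scaling by library size alone (-0.10, where the median of all genes was -0.14) and on log2(TPM + 1) (-0.09, median of all genes -0.08). The difference of HFpEF+TYA-018 from HFpEF+SGLT2i was -0.19 (95% interval -0.32 to -0.06, adjusted p = 0.166 in edgeR).

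Atf4, the central transcription factor of the program, was the most abundant member and one of the steadiest. Its lowest, median and highest levels were 38.8, 44.7 and 62.2 TPM in non_failing and 48.4, 57.2 and 64.1 in HFpEF+Veh. In HFpEF+TYA-018 they were 37.96, 46.1 and 55.8, and in HFpEF+SGLT2i 38.3, 49.01 and 61.5 TPM. The ranges of all 4 groups overlapped and no comparison passed the test. The difference of HFpEF+Veh from non_failing was 0.15 on the log2 scale (95% interval -0.02 to 0.33, adjusted p = 0.392 in edgeR), and of HFpEF+TYA-018 from HFpEF+Veh -0.16 (95% interval -0.32 to -0.00148, adjusted p = 0.281, 10 of 11 mice on log2 CPM and 11 of 11 in TPM). The latter was called when libraries were scaled by their size alone (-0.29, adjusted p = 0.0249), a scaling that also moved the median of all genes to -0.14. Both treated groups lay within 0.01 of non_failing, with 95% intervals from -0.17 to 0.15 for TYA-018 and -0.15 to 0.17 for empagliflozin.

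Ddit3 encodes CHOP, a transcription factor of the later, pro-apoptotic phase of the response. In each group it had the largest coefficient of variation of the 3 transcription factors. Its lowest, median and highest levels were 16.2, 29.3 and 32.1 TPM in non_failing and 23.2, 34.4 and 51.5 in HFpEF+Veh. In HFpEF+TYA-018 they were 21.1, 28.0 and 54.7, and in HFpEF+SGLT2i 19.0, 23.4 and 30.0 TPM. The highest values came from V2528 of HFpEF+Veh and V2550 of HFpEF+TYA-018. All 11 empagliflozin mice lay below the vehicle mean, and the log2 fold change was -0.39 (SE 0.16, 95% interval -0.72 to -0.07) with p = 0.0189 before and 0.349 after adjustment in edgeR. HFpEF+TYA-018 exceeded HFpEF+SGLT2i by 0.40 (p = 0.0111, adjusted p = 0.229) in 9 of 11 mice. GENCODE M21 lists 2 overlapping gene models named Ddit3 on chromosome 10, and which of them these values cover is not known.

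Comparing HFpEF+SGLT2i with HFpEF+Veh, 0 of the 9 tested genes were called, beside 0.850% of all genes. Of the 9, 3 (Atf5, Ddit3 and Gdf15) had an unadjusted p under 0.05, as did 10.05% of all genes. DESeq2 called 0 of the 9 too, beside 117 of all genes. Comparing TYA-018 with empagliflozin, 0 of 9 were called while 0% of all genes were, and 2 (Atf5 and Ddit3) had an unadjusted p under 0.05, as did 13.2% of all genes. DESeq2 called 0 of the 9 here as well, but 187 of all genes. Leaving out V2523, the 9 genes gave 2, 0, 0 and 0 calls in the comparisons of vehicle with non_failing, TYA-018 with vehicle, empagliflozin with vehicle and TYA-018 with empagliflozin, beside 4.49%, 1.42%, 0.0145% and 0% of all genes.

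**Figure D2:**
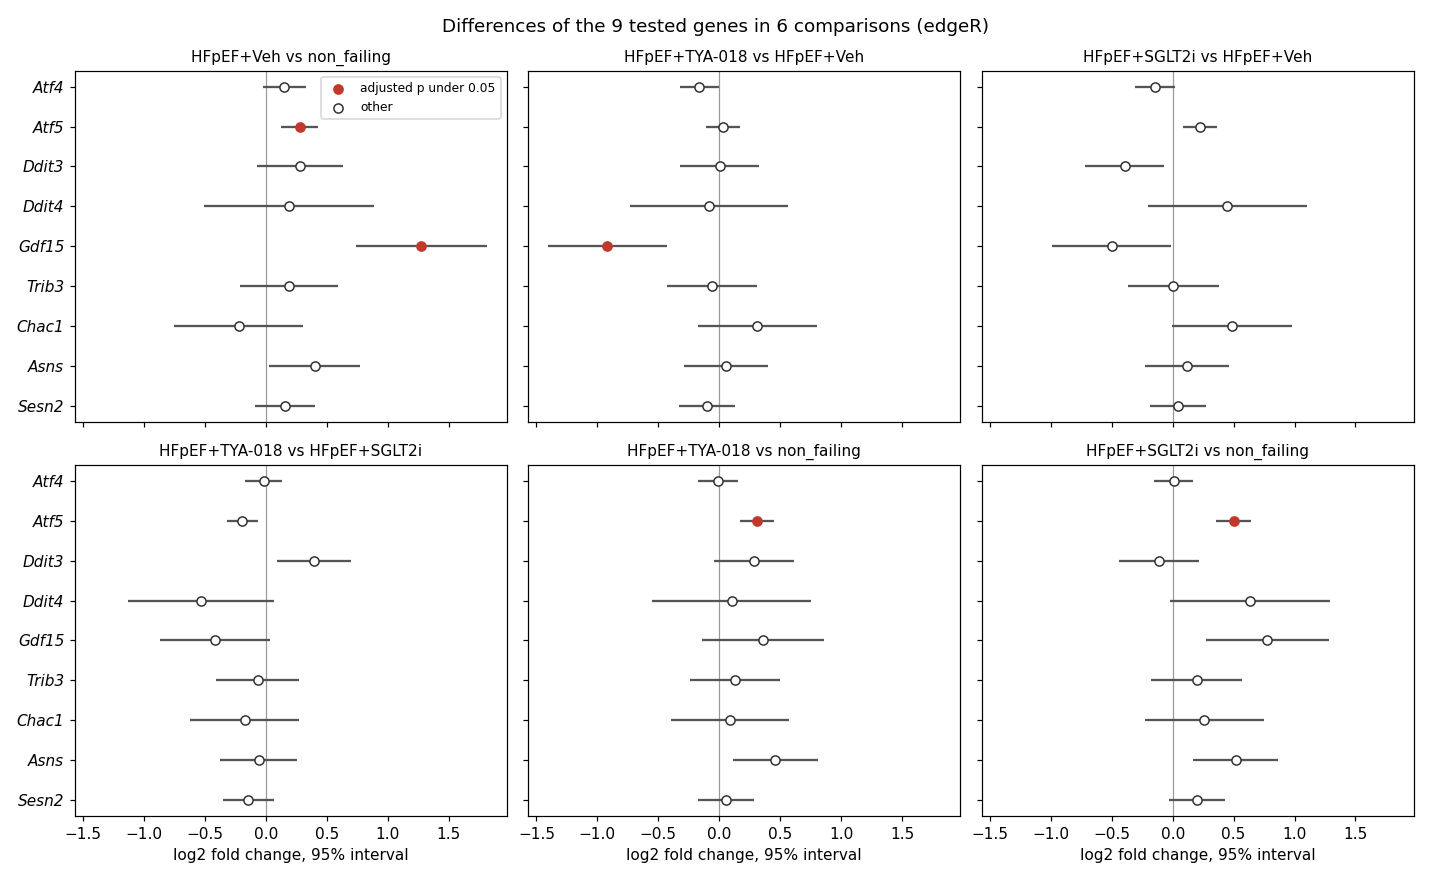
Log2 fold change (horizontal axis, first group minus second) of the 9 tested genes in the 6 comparisons, with 95% intervals from edgeR; filled points passed at an adjusted p under 0.05. Gdf15 is filled at 1.28 in HFpEF+Veh against non_failing and at -0.92 in HFpEF+TYA-018 against HFpEF+Veh, Atf5 is filled in every comparison with non_failing, and no point is filled in the other panels.

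Asns, Chac1 and Trib3 are, beside Fgf21, the members whose promoters hold the motif shown above. Asns encodes asparagine synthetase, which makes asparagine from aspartate and glutamine. Its lowest, median and highest levels were 0.606, 1.10 and 1.69 TPM in non_failing, 0.984, 1.49 and 2.05 in HFpEF+Veh, 1.02, 1.27 and 2.23 in HFpEF+TYA-018, and 0.929, 1.44 and 2.75 in HFpEF+SGLT2i. The groups overlapped, with V2523 the highest of the vehicle mice. Against non_failing, the log2 fold changes were 0.40 in HFpEF+Veh (adjusted p = 0.268), 0.46 in HFpEF+TYA-018 (adjusted p = 0.0969) and 0.52 in HFpEF+SGLT2i (95% interval 0.17 to 0.87, adjusted p = 0.0641), none past the threshold in edgeR. The vehicle value was 0.32 without V2523. V2571 had the highest Asns of the 38 mice, and without it the empagliflozin value was 0.39 (adjusted p = 0.143 in edgeR). It was called without V2507 (0.61, adjusted p = 0.0320), V2565 (0.0497) or V2574 (0.0265). DESeq2 called the difference of HFpEF+SGLT2i with all libraries in (adjusted p = 0.0407). On log2 CPM 11 of 11 TYA-018 mice and 10 of 11 empagliflozin mice lay above the non_failing mean, but in TPM 8 of 11 in each group.

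Chac1 encodes an enzyme that degrades glutathione and Trib3 a pseudokinase that restrains ATF4 and AKT signaling. Chac1 ranged from 0.657 to 2.35 TPM in non_failing, 0.877 to 2.13 with vehicle, 0.770 to 3.36 with TYA-018 and 0.943 to 3.05 with empagliflozin. Trib3 ranged from 0.795 to 2.93, 1.41 to 2.69, 1.29 to 2.50 and 1.13 to 4.36 TPM in the same groups. Neither gene passed the test in any comparison. For Chac1 the log2 fold change with the smallest p was 0.48 in HFpEF+SGLT2i against HFpEF+Veh (95% interval -0.01 to 0.98, adjusted p = 0.508 in edgeR), and it was 0.40 without V2523. For Trib3 the 6 values lay between -0.07 and 0.20, with 95% intervals that reached no further than -0.43 and 0.59. V2571 had the highest Trib3 of the 38 mice, and without it HFpEF+SGLT2i exceeded non_failing by 0.05 (adjusted p = 0.911 in edgeR). V2523 had the lowest Chac1 and Trib3 of the 8 vehicle mice, at 0.877 and 1.41 TPM.

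Sesn2 and Ddit4 encode inhibitors of mTORC1, the kinase complex that promotes protein synthesis. Sesn2 was scarce and even, with lowest, median and highest levels of 0.623, 0.750 and 0.962 TPM in non_failing, 0.744, 0.892 and 1.21 in HFpEF+Veh, 0.577, 0.807 and 1.06 in HFpEF+TYA-018, and 0.719, 0.838 and 1.39 in HFpEF+SGLT2i. Its 6 log2 fold changes were between -0.14 and 0.20, and none passed the test in edgeR. Ddit4 was the reverse, abundant and uneven, from 5.58 to 28.1 TPM in non_failing, 6.05 to 25.4 with vehicle, 5.65 to 23.5 with TYA-018 and 9.81 to 41.3 with empagliflozin. In each group the highest mouse had over 4 times the level of the lowest. The log2 fold change of Ddit4 in HFpEF+SGLT2i against non_failing was 0.64 (SE 0.32, 95% interval -0.02 to 1.29, adjusted p = 0.272 in edgeR), so with this spread neither a large rise nor none could be told. V2523 had the lowest Ddit4 of the vehicle mice (6.05 TPM, against a mean of 18.6 ± 7.40, SD, n = 7, in the others).

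The spread between mice of a group offered a further view of whether the genes move together. After subtraction of the group means from log2 CPM, 27 of the 36 pairs of tested genes correlated positively over 38 libraries, with a median Pearson r of 0.09 and a range of -0.25 to 0.60. By Pearson's r, 2 pairs passed the permutation test with 100000 resamples, adjusted over the 36 pairs. By Spearman's rho Atf5 with Trib3 passed as well (rho = 0.464, adjusted p = 0.0425 by permutation, against r = 0.399 with adjusted p = 0.160). Ddit4 and Chac1 had r = 0.597 (p = 5e-05, adjusted p = 0.00180) and Spearman's rho = 0.586 (p = 0.00011, adjusted p = 0.00198). Without V2508 and V2523, the libraries farthest from the median of Ddit4, r was 0.541, and within the 4 groups it was 0.484 to 0.751. Atf5 and Asns had r = 0.580 (p = 0.00021, adjusted p = 0.00378) and rho = 0.593 (adjusted p = 0.00198) by the same permutation test, r = 0.652 without V2521 and V2570, and 0.454 to 0.741 within groups.

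Atf4 correlated with none of the others past the threshold, its highest r being 0.35 with Ddit3. Gdf15, the gene with the largest called fold change among the members, had r between -0.06 and 0.18 with each of the other 8 tested members. On log2(TPM + 1) 5 pairs passed the permutation test, the additional ones being Atf5 with Trib3 (r = 0.550), Atf5 with Sesn2 (0.441) and Trib3 with Asns (0.463). All of these points share the library's depth and composition.

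**Figure D3:**
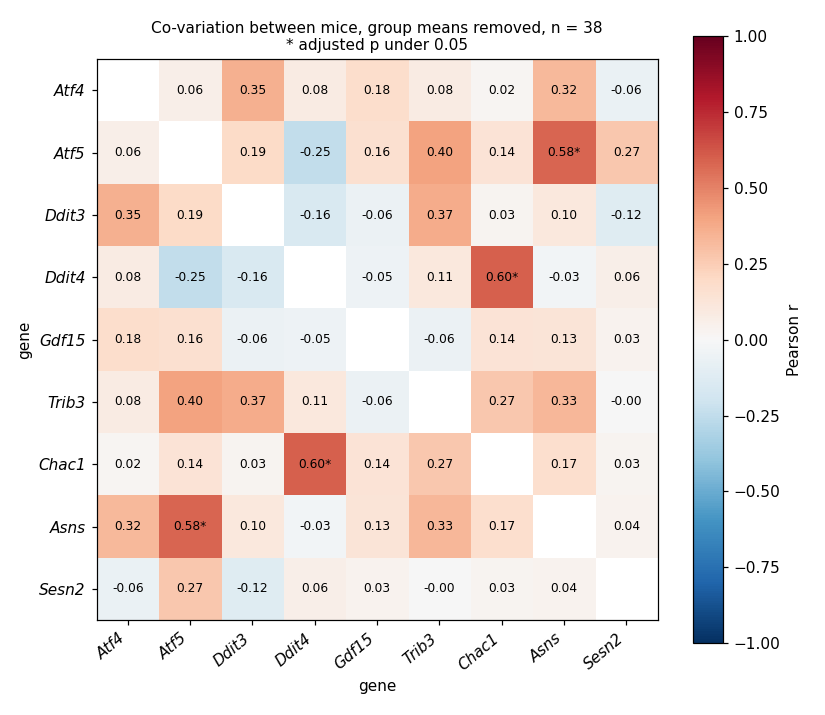
Pearson r between the 9 tested genes across 38 libraries after the group means were removed (both axes list the genes, color gives r, and a star marks an adjusted p under 0.05). The starred pairs are Ddit4 with Chac1 and Atf5 with Asns, and the other pairs lie between -0.25 and 0.40.

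By the same measure, the 3 genes most like each tested member were sought among genes averaging 1 or more in log2 CPM, with the members themselves left out. Ddit4 was most like Nfkbia (r = 0.828), an inhibitor of NF-kB, followed by Cdc42ep4 (0.806) and Arl4a (0.792). Atf4 was most like the gamma actin gene Actg1 (0.766), then Sertad1 (0.746) and Sat1 (0.715), the latter an enzyme of polyamine breakdown. For Ddit3 they were Atp5sl (0.799), Cep95 and Wdr35, for Trib3 Ggta1 (0.792), Trim47 and Dll4, and for Atf5 Cd248 (0.716), Clip2 and Gas7. Asns was most like Cadm3 (0.713), Mesdc1 and Sptlc2, and Chac1 like Thrsp (0.689), Tcf23 and Pmm1. Gdf15 had weaker partners in Mvp (0.583), Gsta1 and Gm8995, as did Sesn2 in Cactin (0.524), Sez6l2 and Ahnak2. Since each was picked as the highest over all such genes, these values are a description without a test.

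The machinery upstream of ATF4 showed no called gene. Of 18 listed kinases, subunits of eIF2 and eIF2B, phosphatase subunits and mitochondrial relays, 16 were tested. By edgeR 0 of the 16 were called in any of the 6 comparisons, beside 0% to 7.39% of all genes. At an unadjusted p under 0.05 there were 1, 3, 0, 3, 2 and 1 of the 16 in the order vehicle against non_failing, TYA-018 against vehicle, empagliflozin against vehicle, TYA-018 against empagliflozin, TYA-018 against non_failing and empagliflozin against non_failing, beside 15.9%, 17.5%, 10.05%, 13.2%, 21.97% and 19.6% of all genes. The median log2 fold changes lay between -0.05 and 0.05. Scaling by library size alone gave 1 lower call in TYA-018 against vehicle, where it called 1096 of all genes, and 0 elsewhere. DESeq2 gave 0 throughout, while it called 117 to 1272 of all genes in the 6 comparisons.

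Among 26 further ATF4 target genes, 1, 1 and 2 were called against non_failing with vehicle, TYA-018 and empagliflozin, beside 3.15%, 7.39% and 6.45% of all genes, so the list as a whole was near the background. Mthfd2 was called in all 3. It encodes a mitochondrial enzyme of one-carbon folate metabolism. Its lowest, median and highest levels were 0.508, 0.584 and 0.851 TPM in non_failing, 0.807, 1.53 and 3.23 in HFpEF+Veh, 1.15, 1.72 and 2.89 in HFpEF+TYA-018, and 1.26, 2.12 and 3.16 in HFpEF+SGLT2i. Only the lowest vehicle mouse reached into the non_failing range. The log2 fold changes against non_failing were 1.32 (adjusted p = 0.000163, 8 of 8 mice), 1.54 (adjusted p = 2.13e-06, 11 of 11) and 1.74 (adjusted p = 1.69e-07, 11 of 11) in edgeR, and 1.27 for vehicle without V2523. The serine synthesis gene Psat1 was also higher in HFpEF+SGLT2i than in non_failing (0.39, adjusted p = 0.0454), a call made in 5 of 8 other settings (not with library size alone, no filter or 2 groups only) and in 24 of the 38 fits without 1 library, where the difference was 0.33 to 0.45. No other gene of the 26 was called against non_failing. None was called between the HFpEF groups, beside 0% to 1.93% of all genes, while the list medians lay between -0.03 and 0.10. Without V2523 the calls against non_failing were 2, 2 and 3, of which 1, 1 and 0 were lower, beside 4.49%, 8.14% and 6.91% of all genes.

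Amino acid transporters had calls in both directions, although 8 of the 9 tested had a positive sign in HFpEF+Veh against non_failing (median 0.24 against 0.01 for all genes). Against non_failing, 0, 1 and 1 of the 9 were called higher with vehicle, TYA-018 and empagliflozin, and 1, 1 and 0 lower. The shares of all genes called were 3.15%, 7.39% and 6.45%. Slc7a1, which carries cationic amino acids such as arginine, was lower than in non_failing in HFpEF+Veh (log2 fold change -0.58, adjusted p = 0.0426, 7 of 8 mice) and in HFpEF+TYA-018 (-0.51, adjusted p = 0.0312, 11 of 11) by edgeR. The vehicle call was made in 3 of 8 other settings and in 26 of the 38 fits without 1 library, and that under TYA-018 in 8 of 8 and 35 of 38. The lowest, median and highest levels were 3.12, 4.08 and 4.80 TPM in non_failing and 1.68, 2.72 and 4.90 in HFpEF+Veh. V2523 was the exception, with the highest Slc7a1 of the vehicle mice, and without it the difference was -0.70 (adjusted p = 0.00657 in edgeR). Slc7a3, another cationic transporter at the low level of 0.0764 ± 0.0869 TPM in non_failing, was higher in HFpEF+TYA-018 (1.62, adjusted p = 0.0399) and HFpEF+SGLT2i (2.02, adjusted p = 0.00919) by edgeR, calls made in 2 and 4 of 7 other settings, limma not among them. Slc7a11, the cystine transporter, had too few reads to be tested.

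Of 12 cytosolic aminoacyl-tRNA synthetases tested, Yars was higher than in non_failing in HFpEF+TYA-018 (0.23, adjusted p = 0.00174) and HFpEF+SGLT2i (0.24, adjusted p = 0.000930), and Sars in HFpEF+TYA-018 (0.18, adjusted p = 0.0149), by edgeR, each in 11 of 11 mice on log2 CPM (in TPM 11, 10 and 9). The calls were thus 2 of 12 under TYA-018 and 1 of 12 under empagliflozin, beside 7.39% and 6.45% of all genes. With vehicle 0 of 12 were called against non_failing, beside 3.15% of all genes. The rise in level was not limited to treated mice, however. Median Yars was 5.50 TPM in healthy hearts, 6.40 with vehicle, 6.16 with TYA-018 and 6.36 with empagliflozin. Median Sars was 17.1, 19.6, 18.2 and 18.9 TPM in that order, so for both genes the vehicle median in TPM was the highest. No synthetase was called between HFpEF groups, beside 0% to 1.93% of all genes. In HFpEF+SGLT2i against HFpEF+Veh 12 of 12 had a positive sign, with a median of 0.11 against 0.01 for all genes. With scaling by library size alone 8 of 12 did (median 0.03 against -0.07 for all genes), and on log2(TPM + 1) 7 of 11 (0.03 against -0.04). On log2(TPM + 1) no synthetase was called, and with library size alone Yars and Sars were not called in HFpEF+TYA-018 against non_failing (adjusted p = 0.0905 and 0.239). Of 10 mitochondrial chaperones and proteases, which ATF5 can induce, 0 were called in any comparison by edgeR, beside 0% to 7.39% of all genes. DESeq2 called 1 in HFpEF+TYA-018 against HFpEF+Veh, beside 402 of all genes, as edgeR did without V2523, beside 1.42% of all genes. In HFpEF+TYA-018 and HFpEF+SGLT2i against HFpEF+Veh, 9 and 10 of the 10 had a positive sign, with medians of 0.17 and 0.18, and 7 and 8 of 10 did with library size alone, which moved the medians of all genes to -0.14 and -0.07. At an unadjusted p under 0.05 there were 2 and 0, beside 17.5% and 10.05% of all genes.

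Other inducers of Ddit4, Sesn2 and Gdf15 were read from their own genes. Of 9 p53 targets tested, 0 were called in any comparison by edgeR, beside 0% to 7.39% of all genes. At an unadjusted p under 0.05 there were 1 to 3 per comparison, beside 10.05% to 21.97% of all genes. In HFpEF+TYA-018 against HFpEF+Veh, 8 of the 9 had a negative sign, with a median of -0.19 against -0.01 for all genes. With library size alone 3 were called lower in that comparison, where 1096 of all genes were called and the median of all genes was -0.14. In HFpEF+SGLT2i against HFpEF+Veh that scaling called 1 lower, beside 149 of all genes. DESeq2 called 1 of the 9, lower in HFpEF+SGLT2i than in HFpEF+Veh, beside 117 of all genes. Of 9 hypoxia-responsive genes tested, Egln3 (0.88, adjusted p = 0.0122) and Bnip3 (0.46, adjusted p = 0.0176) were higher in HFpEF+TYA-018 than in non_failing by edgeR, beside 7.39% of all genes called. No gene of the 9 was called elsewhere by edgeR, beside 0% to 6.45% of all genes. DESeq2 called 1 in HFpEF+SGLT2i against non_failing, beside 1129 of all genes. V2543 had the highest level of both in HFpEF+TYA-018, with Egln3 at 46.7 TPM against a group median of 13.9 and Bnip3 at 148 against 85.0. The medians of the other HFpEF groups were near these, at 12.5 (vehicle) and 12.6 TPM (empagliflozin) for Egln3 and 85.6 and 87.2 for Bnip3. In non_failing they were 8.44 and 72.2 TPM. Both calls were made in each of the 38 fits without 1 library (0.61 to 0.96 for Egln3 and 0.36 to 0.49 for Bnip3), and that of Bnip3 was lost with library size alone (adjusted p = 0.0579) and on both limma scales. Of 12 glucocorticoid-responsive genes, 1 was called against non_failing in each of HFpEF+TYA-018 and HFpEF+SGLT2i, beside 7.39% and 6.45% of all genes. It was the metallothionein gene Mt1, higher in HFpEF+TYA-018 (0.63, adjusted p = 0.0137) and in HFpEF+SGLT2i (0.53, adjusted p = 0.0447) by edgeR. The former call was lost by limma on log2(TPM + 1) (adjusted p = 0.0509). The latter was lost with library size alone, no filter or 2 groups only (adjusted p = 0.0548 to 0.0572), and was made in 18 of the 38 fits without 1 library (0.43 to 0.62, the lowest without V2571). Lcn2 was the 1 gene of the 12 called in HFpEF+Veh against non_failing (3.12) and in HFpEF+TYA-018 against HFpEF+Veh (-2.26), beside 3.15% and 1.93% of all genes. V2523 had 95.5 TPM of Lcn2 against a vehicle median of 2.12. Without V2523 neither call held (0.60 with adjusted p = 0.427, and 0.27 with adjusted p = 0.722, in edgeR). Ppp1r15a, Vegfa, Cdkn1a and Mt2 are each in 2 of these lists.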

How the data were processed

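RNA of left ventricle was sequenced in 38 mice. Per the study's methods, the authors trimmed reads with fastp, quantified mouse transcripts (GRCm38, GENCODE) with Salmon 1.6.0 and summed them to genes with tximport, while the labels name a human build, which the mouse gene symbols do not bear out. The deposited expected counts are estimated reads per gene, of which 23.3% were not whole, and they were rounded. The deposited TPM values are scaled by the authors to transcript length and add up to 95.1 to 96.5% of the nominal total per library. Deposited effective lengths served as an offset in 1 alternative. Unmapped columns numbered 0.

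Genes were kept with filterByExpr (13765 of 29564) and scaled with TMM. Two-sided tests were the quasi-likelihood F tests of edgeR 4.0.16 (R 4.3.3), in 1 model of 4 groups with 6 comparisons, adjusted by Benjamini-Hochberg over all genes and called under 0.05. The scripts were tested on simulated data. Fgf21, removed by the filter, was tested by permutation of CPM. Correlations used log2 CPM with a prior count of 2. The number of mice in a direction counts those of the first group beyond the mean of the second, on log2 CPM unless TPM is named (CPM for Fgf21). Alternatives were DESeq2 1.42.0, limma 3.58.1 on log2(TPM + 1) and log2(TPM + 0.1), other scalings, no filter, length offsets, 2 groups only and leaving out each library.

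All 10 members are named, and from each list up to 3 called genes of smallest p in a comparison, with a few further genes named for their reads or V2523. The values of 1 gene of these lists are not reported here, although it counts in the totals. The members and lists were chosen with earlier results of these data known. Mouse numbers differ between groups, so nothing was paired. Counts carry the depth of each library, and the precision of a scarce gene follows from it. Sequences came from RefSeq (GRCm38.p6) and gene models from GENCODE M21. Whether counting used strand is not given in the sources used here.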

Additional observations from a re-analysis of the deposited data

Results flagged for a closer look

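The Fgf21 level of non_failing mouse V2504 lay far from the other 7 of its group, at 0.149 TPM (4 counts), where the next highest was 0.0416 TPM (1 count). The gap took up 0.721 of the group's range, above Dixon's 95% critical value for 8 samples. The 10 genes gave 20 such groups of 8 mice, and chance flags about 1 in 20, so a single flag is no more than that number gives. At these counts the gap is 3 reads.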

How the results depend on the processing

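Of 432 values under other settings, 399 kept their direction and side of the threshold, and 24 small differences changed sign. Genes called in HFpEF+Veh against non_failing were 2, or 1 when only these groups were fitted, which called 344 of all genes, against 433. In HFpEF+TYA-018 against HFpEF+Veh they were 1, but 2 with library size alone, which called 1096 of all genes, and 0 with 2 groups only, which called 58, against 266. In HFpEF+TYA-018 against non_failing they were 1, or 0 with either limma scale, which called 597 and 616 of all genes, against 1017. In HFpEF+SGLT2i against non_failing they were 1, but 2 with the length offset or 2 groups only, and 3 with DESeq2. These settings called 809, 809 and 1129 of all genes, against 888. Leaving out 1 library gave 1 to 2, 0 to 1, 0 to 1 and 1 to 2 calls in vehicle against non_failing, TYA-018 and empagliflozin against vehicle, and empagliflozin against non_failing. For genes at few reads, depth limits what can be shown, above all for Fgf21. The cause of these shifts was not tested.

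Signs reversed in HFpEF+TYA-018 against HFpEF+Veh with library size alone (Atf5 -0.0968, Ddit3 -0.120, Asns -0.0667), all above the median of all genes at -0.137 that this scaling gave, on log2(TPM + 1) (-0.0937, -0.154, -0.0317) and on log2(TPM + 0.1) (-0.0951, -0.157, -0.0453), for Ddit3 with no filter (-0.00556) and the length offset (-0.0343), and for Fgf21 in TPM (-0.00264). In HFpEF+SGLT2i against HFpEF+Veh, Trib3 reversed with library size alone (-0.0673), no filter (-0.000483), the length offset (-0.00222), DESeq2 (-0.000215), log2(TPM + 1) (-0.0711) and log2(TPM + 0.1) (-0.0972), and Sesn2 with library size alone (-0.0320) and on both limma scales (-0.0193 and -0.0324). The length offset reversed Atf4 between the drugs (0.0154), in HFpEF+TYA-018 against non_failing (0.00517) and in HFpEF+SGLT2i against non_failing (-0.0103), and library size alone reversed Sesn2 in HFpEF+TYA-018 against non_failing (-0.00102).

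Leaving out 1 library at a time, 54 of 2052 values changed sign, all in differences that were not called. Against HFpEF+Veh, the ranges under TYA-018 were -0.00679 to 0.147 for Asns, -0.00824 to 0.0862 for Atf5, -0.132 to 0.140 for Ddit3 and -0.208 to 0.00401 for Ddit4, and under empagliflozin -0.00983 to 0.199 for Asns, -0.0157 to 0.102 for Sesn2 and -0.140 to 0.0693 for Trib3. Against non_failing they were -0.05004 to 0.0404 (Atf4), -0.0707 to 0.204 (Chac1) and -0.0130 to 0.347 (Ddit4) under TYA-018, and -0.0287 to 0.0588 (Atf4) under empagliflozin. Between the drugs they were -0.125 to 0.0680 (Asns), -0.0473 to 0.0170 (Atf4) and -0.130 to 0.0781 (Trib3). No paired analysis was possible because mouse numbers differ in every group.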
